A study of Saccharomyces cerevisiae with 50 samples.

Results

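RPL7A and RPL7B are the paralogous yeast genes for ribosomal protein L7 of the large (60S) subunit, and they were followed here as a pair across 25 strains in which ribosome footprints and mRNA had been sequenced. The members are the 2 genes, of 6679 open reading frames in each table, whose names hold the symbols RPL7A (YGL076C) or RPL7B (YPL198W). They were selected on their measured footprint and mRNA levels in the strains labelled rpl7a (7962) and rpl7a/+ rpl7b/+ (2435), so those levels are given as a description, without a test.

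Rpl7 (uL30 in the nomenclature shared between kingdoms) is an essential protein of the 60S subunit that joins the precursor particle early, in the nucleolus, and is needed to process the internal transcribed spacer of the precursor ribosomal RNA. Both genes contain introns and code for nearly identical proteins, and yeast can grow with either of them deleted. The related protein Rlp7 is not part of the finished ribosome and serves as an assembly factor in the same early steps. In many duplicated ribosomal protein families one copy supplies most of the mRNA, and loss of that copy leaves the cell with the minor copy alone.

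The cells, all from the SK1 lineage, came from shaken YEPD cultures (2% glucose, 30 °C) in exponential growth at an OD600 of 0.6. Each strain gave 1 footprint and 1 mRNA library. Beside the pair of Rpl7 strains there were 12 other strains with deleted 60S genes (rpl24a, rpl24b, rpl26a, rpl26b, rpl26a rpl26b, rpl26a/+ rpl26b/+, rpl38, rpl40a, rpl40b, rpl40a/+ rpl40b/+, rpl41a and rpl41b), 9 with deleted 40S genes (rps0b, 2 strains labelled rps22a, rps22a/+ rps22b/+, rps25b, rps25a rps25b, rps28a, rps28b and rps29b), and 2 wild-type samples of strain number 4484. The slash marks the heterozygotes, and the labels give neither the ploidy of the other strains nor the way the genes were deleted. A strain deleted for RPL7B alone was not analysed here. The stated aim was to relate changes in gene expression to how much a strain translates in total.

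Library depth was 0.962 to 3.506 M reads (M, 1000000 reads) for mRNA, with medians of 1.999 M in the other RPL and 1.241 M in the RPS strains, and 4.102 to 8.571 M for footprints. The rpl7a libraries held 2.483 M mRNA and 5.415 M footprint reads, and the double heterozygote 1.852 M and 7.321 M. In 2 strains at least 1 library went against its label. In both libraries of rps22a (4662v) RPS22A was kept, at 93.4% (mRNA) and 111% (footprints) of its usual level. RPS22B was the low copy there, at 24.3% and 16.5%. The footprint library labelled rpl26a/+ rpl26b/+ (4654v) had RPL26A at 99.9% of its usual level and RPS0A at 1.0%. Results over the 23 strains include these libraries, and values without both strains are given for some results that differ in a call, a count or a name. Levels are RPKM, reads scaled to coding length and library total, and are shares of a bulk library. A lower level in some cells, a lower level in all cells and a change in RNA per cell therefore cannot be told apart.

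RPL7A carried most of the pair's output wherever its gene was intact. Over the 23 strains not labelled rpl7, RPL7A mRNA ran from 1335 RPKM in rps25a rps25b to 1695 in rps29b, with a median of 1517 RPKM. RPL7B mRNA, the minor copy, ran from 63.2 RPKM in rpl40b to 174 in rps28b, with a median of 100.5 RPKM. The wild-type samples had 1388 and 1471 RPKM of RPL7A mRNA and 100.5 and 90.4 RPKM of RPL7B mRNA. The highest RPL7B level of the 23 strains stayed far under the lowest RPL7A level.

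Footprints gave the same order of the copies. RPL7A footprints ran from 1988 RPKM in rpl26a rpl26b to 3077 in rps28b (median 2484), and RPL7B footprints from 99.4 RPKM in rpl26a rpl26b to 250.7 in rpl41a (median 169). In the wild-type samples RPL7A footprints stood at 2718 and 2262 RPKM and RPL7B footprints at 180 and 143 RPKM. The median ratio of RPL7A to RPL7B was 14.4 in mRNA and 14.8 in footprints. Relative to its mean, the minor copy varied more between the strains: the coefficient of variation over the 23 strains was 24.4% for RPL7B and 7.02% for RPL7A mRNA, and 24.2% and 12.3% for footprints.

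**Figure D1:**
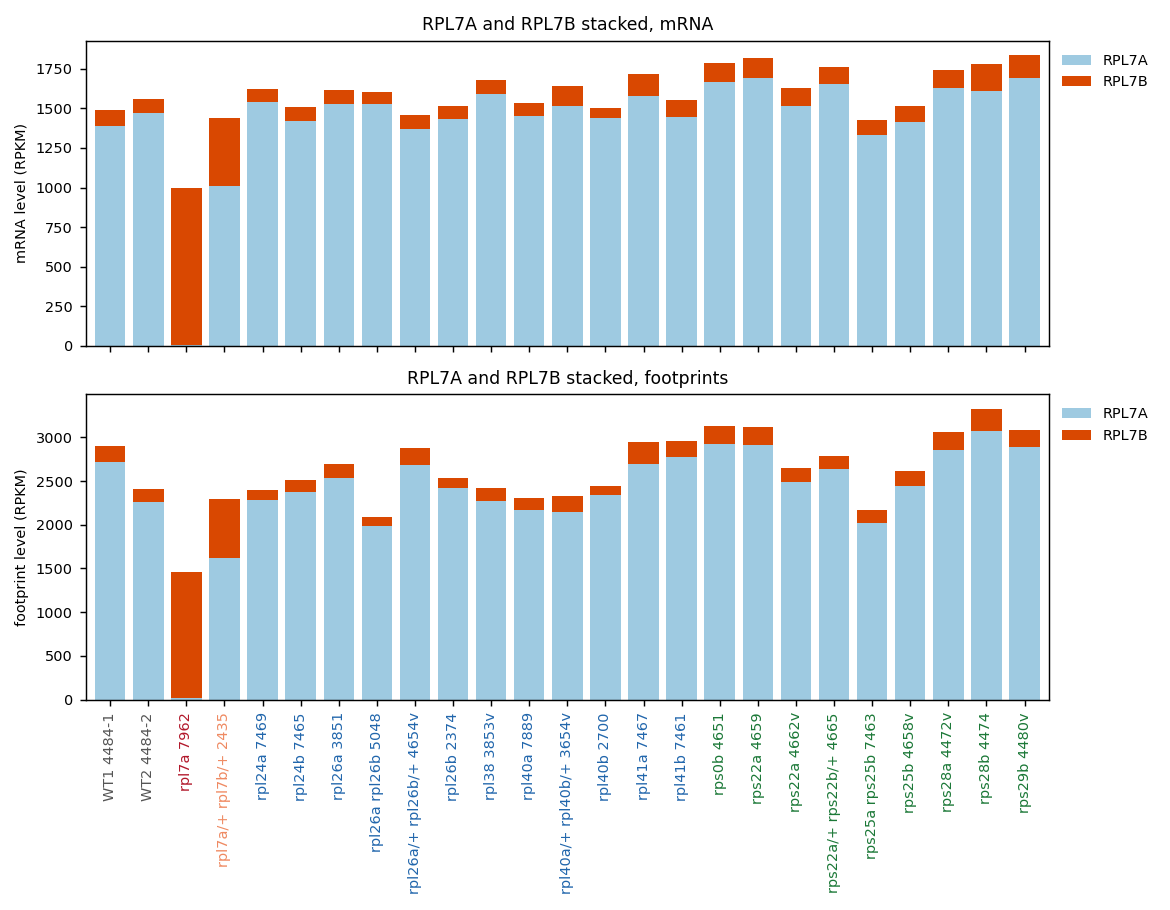
Stacked bars show RPKM of RPL7A (blue) and RPL7B (orange) in each of the 25 strains, mRNA above and footprints below, with 1 library per bar. The bar of rpl7a is RPL7B almost alone and ends at 995 RPKM in mRNA and 1454 in footprints, under every other bar, and RPL7B takes a visible part of the bar in rpl7a/+ rpl7b/+.

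The strain labelled rpl7a had lost nearly all RPL7A reads. Its mRNA library held 7 reads of RPL7A, or 4.18 RPKM, which is 0.275% of the median of the 23 strains, and its footprint library held 77 reads, or 21.1 RPKM (0.848%). Of the reads given to the pair, RPL7A took 0.42% (95% Wilson interval 0.203 to 0.864) in mRNA and 1.45% (1.16 to 1.81) in footprints. In 12 other strains that had lost 1 copy of a pair, the deleted gene kept 0.27 to 3.05% of its usual mRNA and 0.479 to 2.79% of its footprints, and both RPL7A values fell inside these spans. How reads that match both copies were assigned is not given in the sources used here. Where these few reads came from was not tested.

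RPL7B in rpl7a stood at 991 RPKM in mRNA (1661 reads) and 1433 RPKM in footprints (5237 reads). These levels are 986 and 846% of the median of the 23 strains (9.86-fold and 8.46-fold), whose own highest values were 173 and 148% of it. The minor copy alone thus reached less than the usual level of RPL7A in both assays. The sum of both copies was 995 RPKM in mRNA, or 61.7% of the usual sum, and 1454 RPKM in footprints, or 54.8%. Both sums lay below the range of the 23 strains, which ran from 1428 to 1836 RPKM in mRNA and from 2088 to 3325 RPKM in footprints. As background for 1 library set against a range, 7.48% of 5093 genes lay above and 2.28% below the range in rpl7a mRNA, and 13.3% and 1.99% of 4218 genes in its footprints. The excess of genes above the range was not seen with median-of-ratios scaling, where 4.18% lay above and 4.79% below in mRNA, and 5.22% and 5.36% in footprints.

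The strain rpl7a/+ rpl7b/+, a double heterozygote, had low RPL7A and high RPL7B, and their sum was within the range of the 23 strains. RPL7A stood at 1012 RPKM in mRNA (66.7% of the 23-strain median) and 1625 RPKM in footprints (65.4%), below the range in both. RPL7B stood at 426 RPKM in mRNA (423%) and 667 RPKM in footprints (394%), above the range in both, although 1 of its alleles is labelled as deleted. RPL7B took 29.6% (27.5 to 31.8) of the pair's mRNA reads and 29.1% (28.3 to 30.0) of its footprints. The sum was 1438 RPKM in mRNA (89.1%) and 2292 RPKM in footprints (86.4%), close to its lower end in mRNA. Scaling by median-of-ratios size factors moved the mRNA sum to 86.1%, just under the lowest of the 23 strains at 86.3%. In this strain 3.77% of genes lay above and 1.18% below the range in mRNA, and 0.925% and 4.2% in footprints. With median-of-ratios scaling these shares were 2.65% and 3.04% in mRNA, where the excess changed side, and 2.11% and 3.63% in footprints.

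The RPL7B level of the double heterozygote was 42.9% of that in rpl7a in mRNA and 46.6% in footprints. RPS22 is the other family with both a deletion strain and a double heterozygote in which the minor copy was high, and there RPS22B of the heterozygote was at 54.8% of its level in rps22a (4659) in mRNA and at 52.4% in footprints. Each value compares 1 library with 1 library, and has no replicate check.

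Translation of the members' mRNAs was read as the log2 difference of footprint and mRNA RPKM in the same strain, the translational efficiency. Over the 23 strains it was 0.72 ± 0.15 (SD) for RPL7A and 0.68 ± 0.18 for RPL7B. RPL7B was the lower of the pair in 13 of 23 strains, with a median difference of -0.02, so neither copy was consistently ahead. In rpl7a, RPL7B had an efficiency of 0.53, inside the range of 0.37 (rpl26a rpl26b) to 1.15 (rpl26a/+ rpl26b/+, whose footprint library went against its label), and without both conflicting strains the range ended at 0.86. In the double heterozygote the efficiencies were 0.68 for RPL7A and 0.65 for RPL7B. The higher RPL7B footprints in both strains thus went with higher RPL7B mRNA, at an efficiency like that of the other strains.

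The gain of RPL7B can be set beside that of other retained partners. With RPL7A gone and RPL7B at its usual level, the sum in rpl7a would have been 6.23% of the usual in mRNA and 6.39% in footprints, the lowest such value of the 13 strains compared. The measured sums met 59.2% of the shortfall in mRNA and 51.7% in footprints. In rps22a (4659), where RPS22B was at 391% and 491%, 70.0% and 64.3% of the shortfall were met, and in rps28a, with RPS28B at 182% and 145%, 59.1% and 32.3%. In the remaining strains, which kept a copy of RPL24, RPL26, RPL40, RPS0, RPS25, RPS28 or RPS29, the share met was between -11.0 and 11.3% in mRNA and between -22.7 and 16.1% in footprints. The RPL7 sum still ended lower than those of the rps22a (75.6% and 69.3%) and rps28a (76.1% and 60.4%) strains. Over the 12 other strains the sums ran from 37.5 to 78.5% in mRNA and from 29.0 to 69.3% in footprints. The RPL7 sum thus lay inside the span of these strains in both assays. The strain rps22a (4662v) is left out of these counts, since its libraries kept RPS22A. The strains rpl41a and rpl41b are also left out, as the RPL41 pair was not compared.

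**Figure D2:**
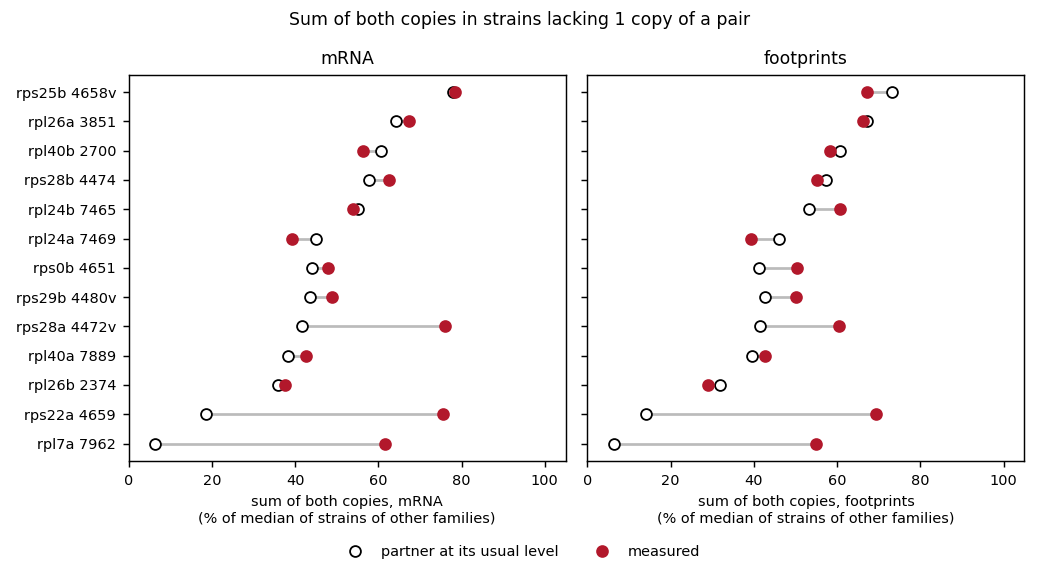
Each line is 1 strain that had lost 1 copy of a pair. The open circle is the family sum expected with the partner at its usual level and the filled circle the measured sum, both in percent of the median of strains of other families, for mRNA (left) and footprints (right). The longest lines are those of rpl7a, from 6.23 to 61.7% in mRNA, rps22a (4659) and rps28a.

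Among double heterozygotes the responses differed by family. In rps22a/+ rps22b/+ the major copy RPS22A was at 56.2% in mRNA and RPS22B at 214%, the same pattern as in the RPL7 pair with a smaller rise. In rpl26a/+ rpl26b/+ mRNA both copies were low, RPL26A at 53.1% and RPL26B at 51.2%. In rpl40a/+ rpl40b/+ mRNA RPL40A was at 96.4% and RPL40B at 55.3%. In footprints RPL40A was at 79.3% and RPL40B at 45.4% in that strain. Footprints of rps22a/+ rps22b/+ had RPS22A at 55.7% and RPS22B at 257.5%. The footprint library labelled rpl26a/+ rpl26b/+ went against its label and is not compared here. No test was possible with 1 library per genotype.

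Strains that kept both RPL7 genes allowed a test that did not use the Rpl7 strains: whether the members differ between the 9 RPS and the 12 other RPL strains. RPL7B mRNA was higher in the RPS strains, from 92.6 to 174 RPKM with a median of 114, against 63.2 to 140 RPKM with a median of 86.8 in the other RPL strains. All 9 RPS strains lay above the RPL median, and 9 of 12 RPL strains lay below the lowest RPS strain, while the other RPL strains rpl41a (140 RPKM) and rpl40a/+ rpl40b/+ (126 RPKM) lay above the RPS median, so the groups overlapped. The mean was 121 ± 24.0 RPKM (SD, n = 9) against 92.4 ± 21.4 (n = 12), a log2 difference of 0.40 ± 0.12 (SE) with an adjusted p of 0.0422 (limma, two-sided, over 5093 genes). In that comparison 2.38% of genes were called higher in RPS strains, 5.34% lower and 7.72% in all, and with median-of-ratios scaling 183 were higher and 246 lower in place of 121 and 272.

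The call of RPL7B was near the threshold. It passed in 8 of 23 removals of 1 strain, those of rpl41a, rpl41b, rpl40a/+ rpl40b/+, either wild-type sample, rps22a (4662v), rps25b and rps25a rps25b, and missed in the other removals, with log2 differences of 0.33 to 0.46 and adjusted p of 0.0102 to 0.0838. Without both strains whose libraries went against their labels, the difference was 0.41 with an adjusted p of 0.062 (limma). The strains differ in genotype and have 1 library each, so p-values measure the spread between strains, and the lower mRNA depth of the RPS strains moved with the groups. Its part in the difference was not tested.

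The other member values did not pass this test. RPL7A mRNA was 1579 ± 130 RPKM (SD) in RPS and 1486 ± 68.0 in other RPL strains, a log2 difference of 0.08 ± 0.05 with 7 of 9 RPS strains above the RPL median (limma adjusted p = 0.279). Footprints of RPL7A were 2693 ± 332 RPKM against 2389 ± 242, a difference of 0.17 ± 0.07 with 8 of 9 above (adjusted p = 0.192, limma), and without rps25a rps25b it passed at 0.22 (adjusted p = 0.0336). Footprints of RPL7B were 189 ± 31.1 RPKM against 154 ± 44.2, a difference of 0.33 ± 0.14 with 9 of 9 above (adjusted p = 0.162, limma). All 4 levels leaned the same way, while 1 passed. In footprints 0.498% of 4218 genes were called higher in RPS strains, 2.13% lower and 2.63% in all.

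Neither copy passed the test for translational efficiency. The difference was 0.08 ± 0.07 for RPL7A (limma adjusted p = 0.694) and -0.06 ± 0.08 for RPL7B (0.821). Of 4194 genes 2 were called in efficiency, or 0.0477%, and 509 had an unadjusted p under 0.05.

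The balance between the copies also varied among strains that kept both genes. RPL7B took 4.21% (3.47 to 5.09) of the pair's mRNA reads in rpl40b and 9.79% (8.38 to 11.4) in rps28b, with a median of 6.49%. Its share of footprints ran from 4.41% (4.05 to 4.79) in rpl40b to 8.52% (8.06 to 9.0) in rpl41a, with a median of 6.33%. In the wild-type samples the shares were 6.75 and 5.79% of mRNA and 6.20 and 5.96% of footprints, near the medians. The ends of the order lay apart beyond counting error, but each strain's interval overlapped that of its neighbour in the order at all 22 steps in both assays. The intervals cover counting error only, since amplified reads are not independent molecules.

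The strains with a high or low share were much the same in both assays. Over the 23 strains the mRNA and footprint shares of RPL7B correlated at r = 0.81 (Spearman rho = 0.81), where each pair of values shares a strain. RPL7B levels in the assays correlated at r = 0.87 (rho 0.86), and RPL7A levels, which varied less, at r = 0.51 (rho 0.47). High shares came with rpl41a (8.16% of mRNA and 8.52% of footprints), rpl40a/+ rpl40b/+ (7.67% and 7.86%) and rps28b. Low shares came with rpl40b, rpl26a rpl26b (4.79% and 4.76%), rpl26b (5.22% and 4.84%) and rpl24a (5.36% and 4.73%).

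**Figure D3:**
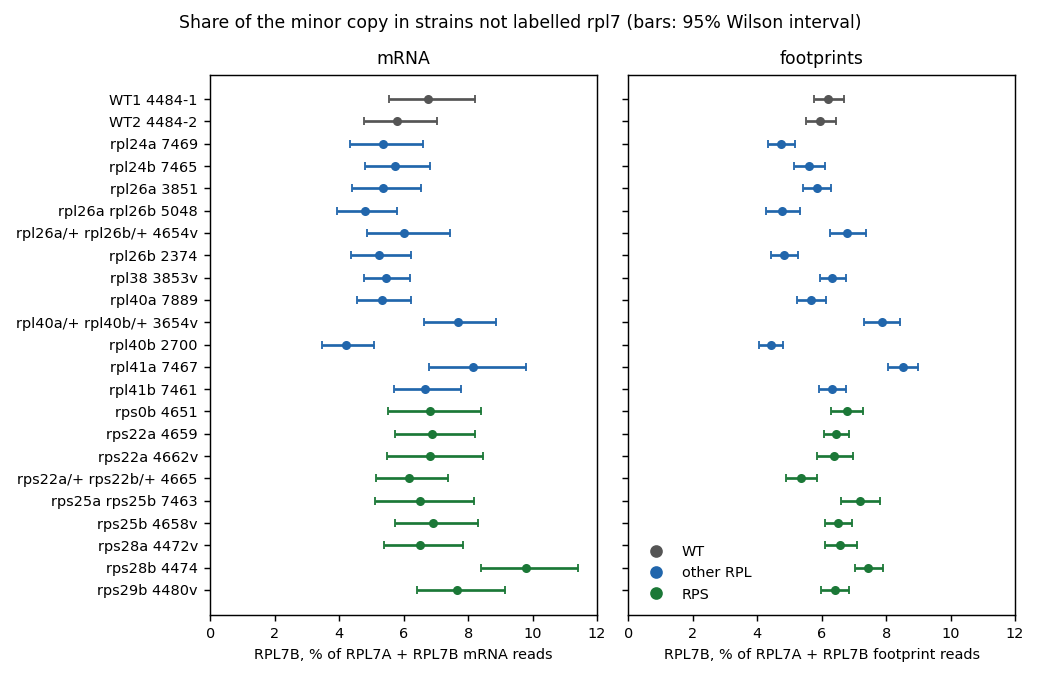
Points give the share of RPL7B in the reads of the pair, in percent, for the 23 strains that kept both genes, with 95% Wilson intervals, for mRNA (left) and footprints (right). The wild-type shares sit between 5.79 and 6.75%, and the ends of the scale are rpl40b and, in mRNA, rps28b at 9.79% or, in footprints, rpl41a at 8.52%.

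Genes whose level followed each member most closely over the 23 strains were mostly other ribosomal protein genes. For RPL7A mRNA the highest Pearson correlations were with RPL4A (r = 0.84, rho = 0.83), which codes for the 60S protein uL4, RPL1B (0.82, 0.77), which codes for uL1, and KAP122 (0.82, 0.77), an importin. RPL7B mRNA was most like RPL4B (0.90, 0.92), RPL8A (0.86, 0.95), which codes for the 60S protein eL8, and RPS11B (0.84, 0.88), which codes for a 40S protein. The partner copy was less alike, at r = 0.59 (rho 0.55), which ranked 172 among 5092 genes by likeness to RPL7A. The named genes were picked for the highest r, so a lower r of the partner is no contrast in itself. The partner's r still lay above the 95th percentile of all genes, which was 0.54 for RPL7A and 0.50 for RPL7B. Without both strains that go against their labels, the genes most like RPL7A mRNA were RLI1 (r = 0.84), RPS1B (0.83) and RPL4A (0.82), those most like RPL7B mRNA were RPL4B (0.91), RPL8A (0.86) and RPP2B (0.83), and the partner ranked 240.

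In footprints RPL7A was most like RPL8B (r = 0.92, rho = 0.95), RPL21B (0.91, 0.90) and RPL20B (0.90, 0.95), all genes of 60S proteins. RPL7B footprints were most like RPL8A (0.92, 0.91), RPL17B (0.87, 0.89) and RPL1B (0.86, 0.87). The copies correlated with each other at 0.75 (rho 0.78), rank 32 of 4217 genes for RPL7A. The same 3 genes led for each member without both conflicting strains, and the partner ranked 38. The 95th percentile of r over all genes was between 0.42 and 0.54 in these comparisons. The values share library scaling within a strain, so likeness is a description of these 23 strains.

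RPL8A followed RPL7B where both RPL7 genes were present and parted from it in the Rpl7 strains. Its mRNA ran from 572 RPKM in rpl24a to 1289 in rpl41a over the 23 strains, with a median of 971, and its footprints from 689 to 2179 RPKM in the same strains, with a median of 1486. In rpl7a it stood at 305 RPKM in mRNA (31.4% of the median, 539 reads) and 389 RPKM in footprints (26.2%, 1499 reads), below the lowest of the 23 strains in both assays. With median-of-ratios scaling these shares were 29.1 and 23.9%. In the double heterozygote it was within the range, at 853 RPKM (87.8%) in mRNA and 1254 RPKM (84.4%) in footprints.

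**Figure D4:**
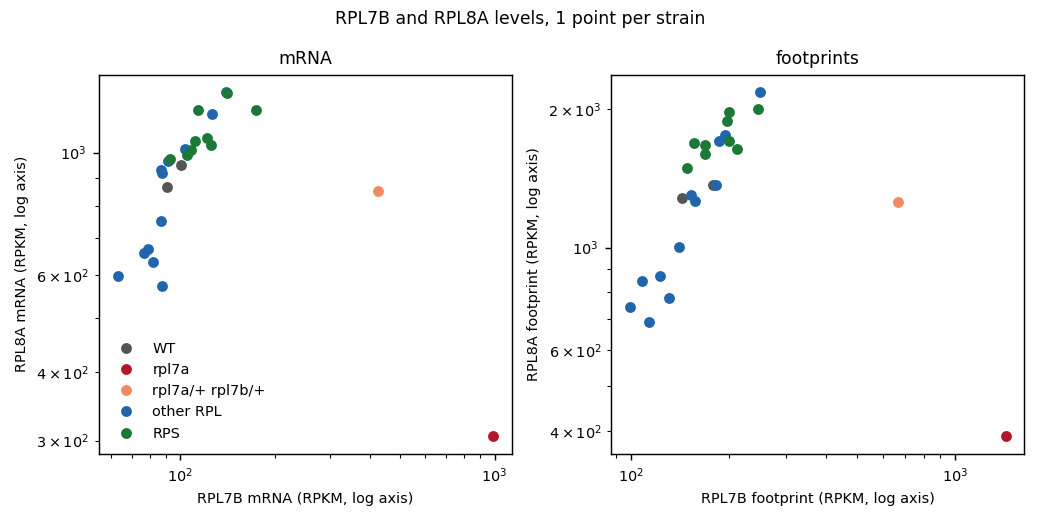
Each point is 1 strain, with RPL7B on the x axis and RPL8A on the y axis (RPKM, both axes logarithmic), for mRNA (left) and footprints (right). The 23 strains with both RPL7 genes lie along a rising band, and rpl7a lies apart at the lower right, with 991 RPKM of RPL7B and 305 RPKM of RPL8A in mRNA.

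RPL8A belongs to a list of 22 genes for 60S proteins that, like Rpl7, join the particle early. In rpl7a 7 of the 22 were below the range of the 23 strains in mRNA and none above, against 2.28% of all genes below it, and the median log2 difference of the list was -0.21 against 0.06 for all 5093 genes. Of those outside the range the lowest were RPL8A (-1.67 on the log2 scale), RPL36B (-0.32) and RPL33B (-0.29), the latter coding for eL36 and eL33. RPL18B (-0.98) and RPL4B (-0.38) were lower than RPL36B and RPL33B but inside the wider ranges of their own genes. In footprints 10 of 22 were below the range and none above, with a list median of -0.22 against 0.13, and RPL8A (-1.93), RPL18B (-1.41), which codes for eL18, and RPL33B (-0.43) were lowest. Median-of-ratios scaling put 16 of the 22 below in mRNA, with 4.79% of all genes, and 12 in footprints, with 5.36%, and moved the median of all genes to -0.01 in both assays. Without both strains that go against their labels 9 and 10 of the 22 were below.

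The same list was read in the double heterozygote. In mRNA 3 of 22 were below the range, against 1.18% of all genes, RPL3 (-0.36), which codes for uL3, RPL36B (-0.23) and RPL13B (-0.21), and none above, with a list median of -0.08 against 0.05. Median-of-ratios scaling put 5 of 22 below, with 3.04% of all genes and a list median of -0.15, and 4 were below without both strains that go against their labels. In footprints none of the 22 left the range, against 0.925% of all genes above it and 4.2% below. Between RPS and other RPL strains 4 of the 22 were called higher in mRNA by limma, RPL18B (0.57), RPL4B (0.41), RPL3 (0.26) and RPL36B (0.17), and 1 lower, RPL36A (-0.22), against 2.38% of all genes higher and 5.34% lower. In footprints RPL4B (0.41) and RPL36B (0.32) were higher and none was lower, against 0.498% and 2.13% of all genes. Voom called 8 of the 22 in mRNA and 4 in footprints, counting both directions. Over all genes it called 409 of 5093 in mRNA and 131 of 4218 in footprints.

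The assembly factors that act with Rpl7 were within the usual range. None of 6 genes (NOP7, ERB1, YTM1, RLP7, NOP15 and CIC1) left the range of the 23 strains in either Rpl7 strain or assay. Of all genes, 7.48% lay above and 2.28% below it in rpl7a mRNA, and 13.3% and 1.99% in its footprints. The double heterozygote had 3.77% and 1.18% in mRNA, and 0.925% and 4.2% in footprints. With shares this small, 0 of 6 does not set the list apart. List medians in rpl7a were -0.13 (mRNA) and -0.18 (footprints), against 0.06 and 0.13 for all genes. In the double heterozygote they were 0.14 in both assays, against 0.05 and -0.05. RLP7, the assembly factor related to Rpl7, had 225 RPKM of mRNA and 331 RPKM of footprints in rpl7a and 269.7 and 407 RPKM in the double heterozygote. Between RPS and other RPL strains limma called 0 of 6 in mRNA, footprints or efficiency, against 7.72, 2.63 and 0.0477% of all genes. Of the 6, 0 had an unadjusted p under 0.05, and voom called 0 in mRNA or footprints.

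Regulators of ribosomal protein genes were the third list. Of 6 listed genes 5 passed the minimum level, and CRF1 did not. In rpl7a mRNA RAP1 (0.12 on the log2 scale), which codes for the DNA-binding protein at most ribosomal protein promoters, and FHL1 (0.25), which codes for a forkhead factor at the same promoters, were above the range, against 7.48% of all genes, and with median-of-ratios scaling neither was. In its footprints none of the 5 left the range, against 13.3% of all genes above and 1.99% below it. HMO1 was there at 0.44 and SFP1 at 0.31 from the median of the 23 strains. In the double heterozygote SFP1 footprints, from a gene for an activator of ribosome production, were below the range (-0.36), against 4.2% of all genes. None of the 5 was called between RPS and other RPL strains by limma, against 7.72% of all genes in mRNA and 2.63% in footprints. None had an unadjusted p under 0.05 or a voom call.

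The genes next to the members were read in the same strains. No other protein-coding gene of the reference table overlaps either member. HNM1, the choline transporter gene on one side of RPL7A, was above the range in rpl7a in mRNA (104 RPKM, 141% of the median) and in footprints (74.0 RPKM, 172%). It was also above it in the double heterozygote in mRNA (101 RPKM, 137%) and within it in footprints (52.1 RPKM, 121%). MPS2, a spindle pole body gene on the other side, was above the range in rpl7a mRNA only, at 20.1 RPKM (155%) from 55 reads. Of all genes, 7.48% lay above the range in rpl7a mRNA, 13.3% in its footprints and 3.77% in double heterozygote mRNA. With median-of-ratios scaling these shares were 4.18, 5.22 and 2.65%.

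Around RPL7B, which is intact in rpl7a and labelled as deleted on 1 allele in the double heterozygote, little moved. YPL199C stayed within the range in both strains and assays, between 87.1 and 107% of its median. OXR1, a gene named for oxidation resistance, did so except for footprints of the double heterozygote, at 12.5 RPKM (58.0%, 70 reads), where 4.2% of genes lay below the range.

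Against the rest of the 60S subunit, whose proteins are present once per ribosome in most cases, the RPL7 pair had few reads. The copies of each of 45 families of 60S genes were summed, RPL41 being left out. Over the 23 strains the RPL7 sum was 0.315 to 0.406 of the median of the other families in mRNA (median 0.361) and 0.266 to 0.348 in footprints (median 0.297). From the highest down it ranked between 40 and 42 of 45 in mRNA and 42 or 43 in footprints. In rpl7a the ratios were 0.238 and 0.181, rank 43 in both, and in the double heterozygote 0.343 and 0.274.

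A family with a single gene has no partner to share reads with. The RPL7 sum was below all 11 single-copy 60S genes in 22 of 23 strains in both assays, the exception being rpl38, where the single-copy gene RPL38 is deleted. The lowest of these 11 genes had 3668 RPKM of mRNA in the first wild-type sample, against a RPL7 sum of 1488 RPKM. Reads that match both near-identical copies may not have been counted in full, since the sources used here do not give their handling. The part of such a loss in the low RPL7 level was not tested, and it would also bear on the percentages given for RPL7A and RPL7B in the Rpl7 strains.

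**Figure D5:**
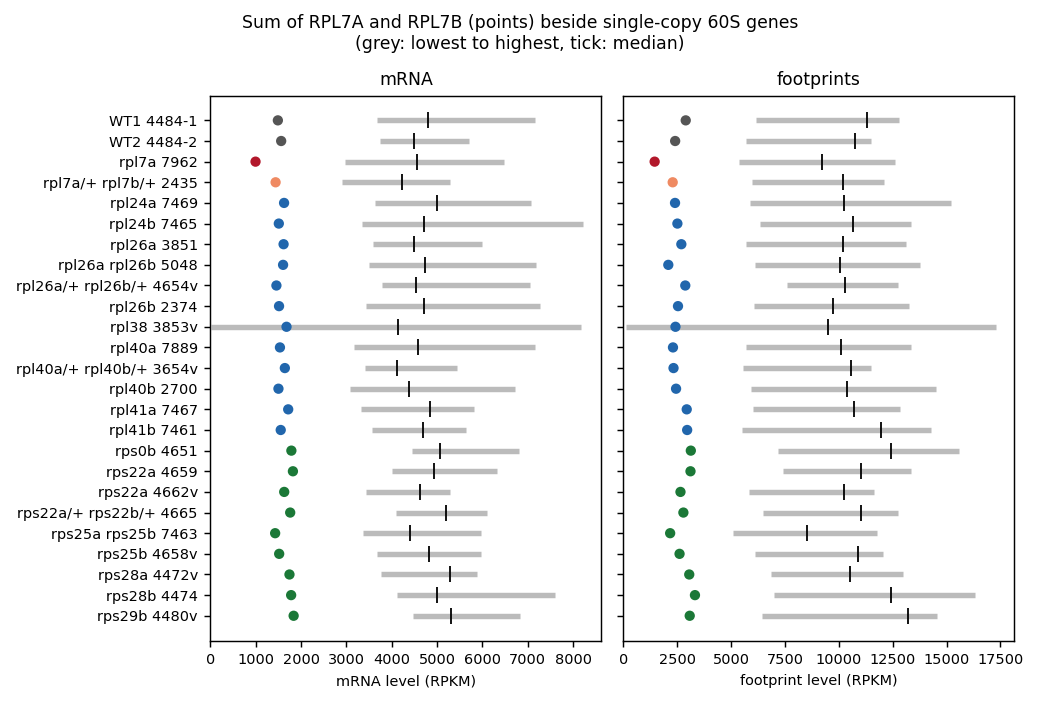
Points give the sum of RPL7A and RPL7B in each strain and grey lines the range of the 11 single-copy 60S genes, with a tick at their median (RPKM), for mRNA (left) and footprints (right). The RPL7 points lie left of every grey line except that of rpl38, and that of rpl7a is the lowest, at 995 RPKM in mRNA and 1454 in footprints.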

How the data were processed

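Each assay has 1 deposited table. Its columns are headed RPKM, yet the values the authors deposited are a signal that increases with coding length: 1 read was worth a constant per library times the coding length less 60 nt. Bowtie2, CASAVA and bcl2fastq 2.17 were used, per the submitters' processing notes. Not given in the sources used here are the genome build, the annotation, the use of strand and the treatment of reads matching several genes. Whole reads were recovered from these steps within 0.03 reads. Of 5812 annotated open reading frames with signal, 87.6% gave whole reads in all libraries, against 31 of 5811 at another gene's length. For 1081, RPL7A and RPL7B included (735 nt each), the length came from the values and is no evidence for the recovery. A further 157 without a length were left out (at most 0.00057% of the signal), and so was 1 unnamed total line per table. RPKM was recomputed from reads and the length less 60 nt.

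Strains were grouped by label. Genes averaging 10 RPKM or more were tested with limma 3.58.1 (R 4.3.3, mean-variance trend, two-sided) on log2(RPKM + 1) over the 23 strains not labelled rpl7, with Benjamini-Hochberg adjustment over all genes tested and calls at an adjusted p under 0.05. Log2 differences are on that scale, which understates changes of low genes. Efficiency was footprint minus mRNA of the same strain, which keeps the strain as a block. The assays pair by the strain number in the labels. The design assumed deposited RPKM and allowed this recomputation. In the Rpl7 strains a gene was above or below when outside the range of the 23 strains. The wild-type libraries differed by more than sampling noise (chi-square per degree of freedom 3.22 in mRNA, 10.4 in footprints), and nothing says that they came from separate cultures. Tests were checked on simulated counts drawn independently for each gene and strain. These hold no variation shared between genes, so the check does not give the rate of false calls in these data. Members, lists and tests were chosen with earlier results of these data known. The rule for naming other genes was at most 4 called genes per list and 3 outside the range per Rpl7 strain. It also took the 3 most alike genes per member and assay, RLP7 and the adjacent genes. Beyond it, named genes included RPL36A, the assembly factors and CRF1. They also included genes within the range in rpl7a (RPL18B and RPL4B in mRNA, HMO1 and SFP1 in footprints). Alternatives were another scaling, pseudocount, minimum level and reference, the deposited values, voom, strains left out, and the Rpl7 strains counted as RPL strains. Gene names and annotated lengths came from a table of the R64 reference (5994 open reading frames matched). Python 3.11.15 was used for the rest.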

Additional observations from a re-analysis of the deposited data

Results flagged for a closer look

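The share of RPL7B in the mRNA reads of the pair was 9.79% in rps28b (4474), apart from the other 8 RPS strains, with a gap of 0.59 of the range of the group. Its share of footprints was 5.35% in rps22a/+ rps22b/+ (4665), on the low side of the RPS strains, with a gap of 0.49 of the range. In the other assay neither strain stood apart from its group in this way: rps28b had 7.44% of footprints and rps22a/+ rps22b/+ 6.16% of mRNA. Chance sets apart about 1 in 20 groups, and 10 quantities were looked at.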

How the results depend on the processing

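RPL7B in rpl7a exceeded the reference level under every reference and scaling tried. It was at 918% of the reference in mRNA and 728% in footprints with median-of-ratios scaling, at 1142 and 975% against the 12 other RPL strains, and at 1038 and 887% against the wild-type mean. Without both strains whose libraries go against their labels, an alternative chosen after seeing the data, it was at 911% in footprints, and RPL7B of the double heterozygote at 424%. Against the 12 other RPL strains the double heterozygote stood at 490% in mRNA and 454% in footprints.

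Genes outside the range numbered 497 (mRNA) and 643 (footprints) in rpl7a and 252 and 216 in the double heterozygote. Against the range of the 12 other RPL strains they numbered 940 in rpl7a mRNA, and 688 and 491 in the double heterozygote. With a minimum of 50 RPKM they numbered 310 and 329, and 130 and 79, since fewer genes were tested.

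RPL7B mRNA between RPS and other RPL strains missed the threshold with no minimum level (0.40, adjusted p = 0.0513, limma) and without both strains that go against their labels (0.41, adjusted p = 0.062). With the Rpl7 strains counted as RPL strains, the RPL7B difference turned to -0.01 in mRNA and -0.05 in footprints. Those strains carry the levels the members were chosen for. The difference in RPL7A efficiency turned to -0.02 in the same setting. RPL7A efficiency was 2.09 in rpl7a, from 7 mRNA and 77 footprint reads, against at most 0.97 in the 23 strains.

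Calls between RPS and other RPL strains in footprints were 31 with median-of-ratios scaling, 55 with no minimum level, 237 with the Rpl7 strains included and 305 without both strains that go against their labels, against 111. In efficiency, calls were 11 on the deposited values, 24 with the Rpl7 strains included and 11 without both strains that go against their labels, against 2. The replicate block is the pairing of assays by strain. With no replicate block 1 gene was called in efficiency, and neither member in either fit. The causes of these moves were not tested.

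Leaving out 1 strain at a time, calls ran from 212 (without rps0b) to 738 (without rps25a rps25b) in mRNA, from 2 to 499 in footprints for the same strains, and from 2 to 67 (without rpl40a/+ rpl40b/+) in efficiency. The log2 difference of RPL7A ran from 0.07 to 0.11 in mRNA, 0.14 to 0.22 in footprints and 0.06 to 0.11 in efficiency. That of RPL7B ran from 0.33 to 0.46, 0.28 to 0.40 and -0.09 to -0.02. Of the recomputed values, 271 kept direction and call, or for counts and untested values stayed within the limits set for a change, 54 moved past those limits, 17 lost a call, 1 gained one and 3 reversed. Direction and call do not fix size: with the Rpl7 strains counted as RPL strains, the RPL7A difference went from 0.08 to 0.71 in mRNA and from 0.17 to 0.69 in footprints, neither past the test.

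RPL7B had 65 to 216 mRNA reads in the 23 strains, so its mRNA share carries more counting error than its footprint share. Each Rpl7 genotype is 1 library per assay, and no comparison of the Rpl7 strains has a replicate.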
